A study of Mus musculus with 7 samples.

Results

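A set of 8 genes of stem cells and platelet bias was followed across young and old megakaryocyte progenitors, the marrow precursors of megakaryocytes, which shed platelets. They are Slamf1 and Ly6a, which encode antigens of the sort gate, Hoxb5 and Erg, which are transcription factors of haematopoietic stem cells, and Selp, Plscr2, Krt18 and Pdzk1ip1, which are known from platelet-biased or aged stem cells. They were taken by symbol from the authors' deposited table of 769 gene models, and each of the 8 was found once. The young group was 3 libraries from mice aged 3 months, and the old group was 4 libraries from mice labelled 18 to 20 months in one field and 20 months in another. All mice came from a cross of Flt3-cre with mTmG, a reporter whose cells turn from Tomato to GFP for good once they or an ancestor have expressed the recombinase, here driven by the gene of a receptor of multipotent progenitors. Cells were Lin-cKit+Sca1-CD150+CD41+, and the protocol names Tom+ or GFP+ fractions without saying which library held which. Titles of the young libraries begin with mkpgy, and those of the old with mkpgo (2 libraries) or mkpto (2 libraries), so age and the kind of title cannot be told apart for part of each difference. Of the 7 libraries, 6 are labelled C57BL/6 and 1 old library C57BL/7. No label says whether libraries came from separate mice, so p-values may measure a spread that is partly technical.

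Haematopoietic stem cells sit at the top of the blood hierarchy and share much of their surface and transcription factor programme with the megakaryocyte lineage. CD150, a receptor of the SLAM family, and Sca1, a small GPI-anchored protein, are classical antigens for sorting stem cells, and in the Sca1-negative compartment CD150 together with CD41 marks megakaryocyte progenitors. A subset of stem cells is biased towards platelets and carries transcripts of platelet proteins, and stem cells with that bias are known to become more frequent with age.

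Of the 8 genes 7 were higher in old than in young progenitors at the authors' adjusted p under 0.05, and Slamf1 was listed without passing. The rises ran from 2.53-fold for Pdzk1ip1 to 30.4-fold for Plscr2. In the authors' deposited table the median log2 fold change of the 7 called genes was 2.25, against 2.37 over all 302 higher calls. Of 11778 gene models in the authors' adjustment, 4.13% were called, 2.56% as higher and 1.57% as lower in old. The 8 genes were picked with these results known, so their count of 7 carries no test. Plscr2, Hoxb5 and Erg, 3 of the 7, also passed an adjusted p under 0.01, which 1.18% of gene models passed as higher in old. In these bulk libraries, more cells that carry a transcript and more of that transcript per cell cannot be told apart.

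Before the values, the bases ahead of the transcription start are shown for genes of each kind, because GATA factors are central to megakaryocytes. RefSeq windows on build GRCm38.p6, the assembly that mm10 names, were at hand for 5 of the 8 genes, 7 windows in all, of which 3 belong to Erg. The 250 bases before each start were searched on both strands for GATAA (which reads TTATC on the other strand), the core bound by GATA factors, for GGAAGT (on the other strand ACTTCC), a core of ETS factors such as Erg, and for TGTGGT (on the other strand ACCACA), a core of RUNX factors. None of these words overlaps another. Windows with GATAA were 3 of the 7, against 22.6% of all 32851 windows of that length. No window of the 8 genes held GGAAGT or TGTGGT, which 6485 and 4614 of the 32851 windows held. Capitals mark GATAA in either orientation, and the Selp window is shown as one without it.
Slamf1, chr1:171766882-171767131, plus strand: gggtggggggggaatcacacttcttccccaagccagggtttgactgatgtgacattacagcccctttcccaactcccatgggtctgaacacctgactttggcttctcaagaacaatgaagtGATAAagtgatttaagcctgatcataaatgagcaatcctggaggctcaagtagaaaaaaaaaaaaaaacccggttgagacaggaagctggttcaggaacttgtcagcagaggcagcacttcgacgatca
Krt18, chr15:102027966-102028215, plus strand: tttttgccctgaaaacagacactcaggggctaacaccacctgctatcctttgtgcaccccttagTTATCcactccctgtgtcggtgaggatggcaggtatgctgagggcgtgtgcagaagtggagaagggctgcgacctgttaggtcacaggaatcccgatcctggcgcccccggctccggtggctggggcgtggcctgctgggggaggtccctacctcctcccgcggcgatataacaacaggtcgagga
Erg, chr16:95459349-95459598, minus strand: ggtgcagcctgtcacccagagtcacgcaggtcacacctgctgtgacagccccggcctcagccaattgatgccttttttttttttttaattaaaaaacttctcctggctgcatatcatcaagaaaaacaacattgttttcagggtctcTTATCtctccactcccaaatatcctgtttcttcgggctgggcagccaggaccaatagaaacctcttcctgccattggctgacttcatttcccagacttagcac
Selp, chr1:164115014-164115263, plus strand: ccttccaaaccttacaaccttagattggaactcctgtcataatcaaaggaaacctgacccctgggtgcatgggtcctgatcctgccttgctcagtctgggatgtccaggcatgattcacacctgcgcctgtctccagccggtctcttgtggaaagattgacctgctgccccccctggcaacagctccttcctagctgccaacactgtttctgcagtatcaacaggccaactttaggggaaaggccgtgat
The match begins 129 bases before the start in Slamf1, 186 in Krt18 and 103 in the third Erg window. A match describes letters only and was not tied to any factor or to the change with age.

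The young values could be taken back to single libraries for the genes at low level. Young means of all 223 gene models above 0 and up to 40 normalized counts fell, within the rounding of the printed digits, on exactly 1 whole-number combination of 3 steps. Each step is the worth of 1 read in 1 of the 3 young libraries: 1.09, 1.40 and 1.54 normalized counts. By these steps the deepest young library held 1.41 times the depth of the shallowest, on the authors' scaling. The steps carry no replicate number, so the 3 values are given without one. Old means could not be resolved this way and stand without a spread of their own, and their error is the authors' standard error (SE).

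Of the 2 gate antigens, Ly6a was called and Slamf1 was not. Slamf1 encodes CD150, for which the cells were positively sorted (chromosome 1, 171767127 to 171801184, plus strand). Its young libraries held 50, 61 and 64 reads, or 54.3, 85.3 and 98.2 normalized counts (79.3 ± 22.6, SD, n = 3). The authors' deposited table gave an old mean of 228 for Slamf1, which is 2.32 times the highest young library, a log2 fold change of 1.54 (SE 0.55, 95% interval 0.46 to 2.61, adjusted p = 0.0856).

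Ly6a encodes Sca1, whose carriers the gate was set to leave out (chromosome 15, 74994877 to 74998031, minus strand). Its young libraries held 23, 15 and 16 reads, 25.0, 21.0 and 24.6 normalized counts, a narrow spread of 23.5 ± 2.20 (SD, n = 3). In the authors' deposited table the old mean of Ly6a was 98.8, a log2 fold change of 2.08 (SE 0.67, 95% interval 0.76 to 3.40, adjusted p = 0.0499). The old mean was 3.95 times the highest young library. Ly6a was the last gene model inside the threshold: per the authors' deposited table, Gata3 stood just before it (adjusted p = 0.0497) and Ruvbl2 just outside (adjusted p = 0.0502). The other 2 gate genes, Kit and Itga2b (CD41), have no value in that table, which ends at an adjusted p of 0.0993. Among genes of the positively gated antigens only Slamf1 thus has a transcript level here, which does not measure the sorted surface protein.

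The 2 stem cell transcription factors rose from low levels. Hoxb5, a homeobox factor used to mark long-term stem cells (chromosome 11, 96303336 to 96306121, plus strand), had 3, 4 and 2 reads in the young libraries, or 3.26, 5.59 and 3.07 normalized counts (3.97 ± 1.41, SD, n = 3). The 9 reads in all have an exact Poisson 95% interval of 4.12 to 17.1 reads, which covers counting error only. In old cells the authors' deposited table gave Hoxb5 a mean of 82.0, 14.7 times the highest young library (log2 fold change 4.38, SE 0.95, 95% interval 2.52 to 6.24, adjusted p = 0.000628). Hoxb5 had the largest SE of the 8 genes. An antisense gene, Hoxb5os, shares 100 exon bases with it, 3.59% of its exons, and the strand setting of the counting was not given in the sources used here.

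Erg, an ETS factor needed for stem cell maintenance and for megakaryocytes (chromosome 16, 95359169 to 95586593, minus strand), had 28, 29 and 11 reads in the young libraries. These are 30.4, 40.6 and 16.9 normalized counts (29.3 ± 11.9, SD, n = 3), with 1 library well below the other two. The old mean of 98.9 was 2.44 times the highest young library, and the authors' deposited table gave Erg a change of 1.76 on the log2 scale (SE 0.41, 95% interval 0.95 to 2.57, adjusted p = 0.00265).

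Plscr2 changed most among the platelet-bias genes, and Selp, Krt18 and Pdzk1ip1 started from higher young means. Plscr2 is a phospholipid scramblase, of a family that moves lipids between the leaflets of the plasma membrane (chromosome 9, 92275602 to 92297752, plus strand). Its young libraries held 21, 14 and 10 reads, 22.8, 19.6 and 15.4 normalized counts (19.3 ± 3.74, SD, n = 3). The old mean of 586 was 25.7 times the highest young library, and the authors' deposited table gave Plscr2 a log2 fold change of 4.93 (SE 0.79, 95% interval 3.37 to 6.48, adjusted p = 3.46e-07). By p-value Plscr2 ranked 18 among the 769 listed gene models, and by fold change 40 among the 302 higher calls.

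Selp encodes P-selectin, the adhesion receptor stored in the alpha granules of platelets (chromosome 1, 164115264 to 164150026, plus strand). The authors' deposited table gave it 496 normalized counts in young and 2358 in old, a 4.76-fold rise (95% interval 1.90 to 11.9, adjusted p = 0.0304). A gene on its other strand, Gm16548, shares 438 exon bases with Selp, 9.93% of its exons, and itself had means of 34.4 and 124 that did not pass (adjusted p = 0.0659 in the authors' deposited table). An antisense gene, Gm16587, shares a further 186 exon bases with Selp (4.21%) and has no value in that table. Reads from these shared bases cannot be told apart without the strand setting.

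Krt18, a type I keratin of simple epithelia that is also found in stem cells (chromosome 15, 102028180 to 102032027, plus strand), stood at 225 and 1073 normalized counts in the authors' deposited table, a 4.77-fold rise (95% interval 2.03 to 11.3, adjusted p = 0.0164). Its usual partner keratin, Krt8, has no value there. Pdzk1ip1, a small membrane protein that binds PDZ domains and whose gene lies beside the stem cell factor gene Tal1 (chromosome 4, 115088708 to 115093899, plus strand), stood at 1245 and 3154. It had the smallest rise, 2.53-fold (95% interval 1.53 to 4.21), and, per the authors' deposited table, the smallest SE, 0.37 on the log2 scale (adjusted p = 0.0161). Young values of Selp, Krt18 and Pdzk1ip1 were too high to be split into libraries.

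**Figure D1:**
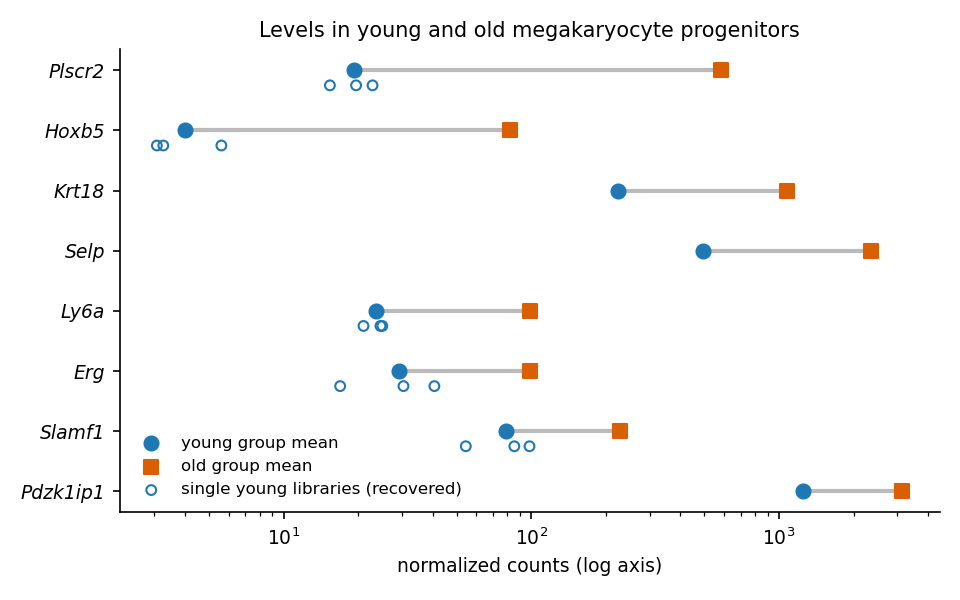
Mean normalized counts (log axis) of each gene in the young (circles) and old (squares) group, with the 3 single young libraries as open circles for the 5 genes where they could be recovered. In those 5 genes each old mean lies above all 3 young libraries, by 2.32 times in Slamf1 and 25.7 times in Plscr2. The genes were listed as higher in old and the spread of the old libraries is unknown, so this does not show that old and young libraries separate.

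By point estimate Plscr2 and Hoxb5 had the largest fold changes, and the other 6 were smaller. The 95% interval of Plscr2, from 3.37 up, lies above those of Erg, Slamf1 and Pdzk1ip1, which end at 2.57, 2.61 and 2.07 on the log2 scale. It overlaps those of Hoxb5, Krt18, Selp and Ly6a. The interval of Hoxb5, from 2.52 up, lies above that of Pdzk1ip1 alone. Between the 6 genes from Krt18 down to Pdzk1ip1 all intervals overlap, and no difference between genes was tested, since all were measured in the same libraries.

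**Figure D2:**
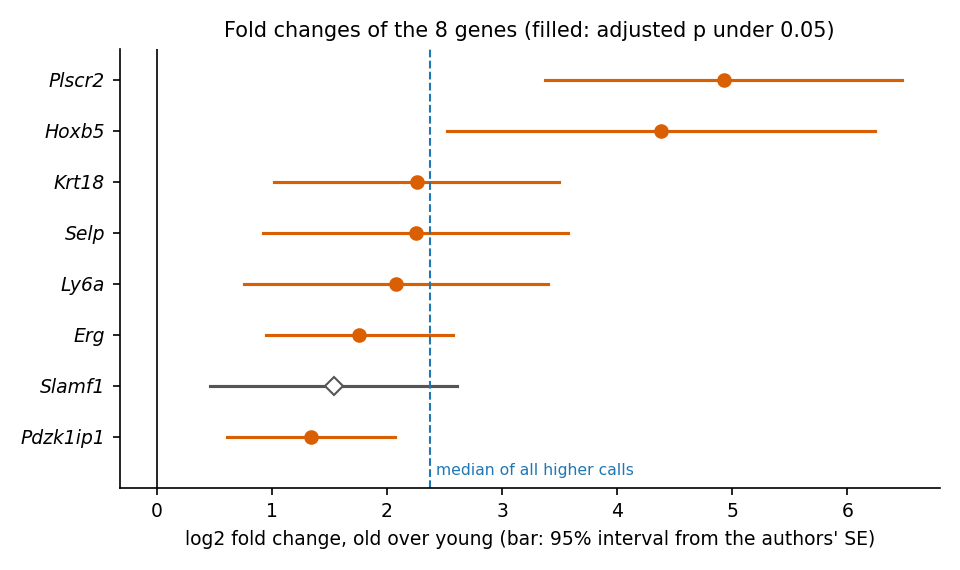
Log2 fold change of old over young for each gene (horizontal axis), with bars for the 95% interval from the authors' SE and filled points for an adjusted p under 0.05. All 8 intervals lie above 0, as they must for any gene that the authors' deposited table lists as higher. Those of Plscr2 and Hoxb5 alone lie wholly above the median of all higher calls, 2.37.

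Levels of different genes were compared per kilobase of exon (union of exons in GENCODE vM21, which may differ from the authors' gene models). On that scale, in normalized counts per kilobase, the young level fell in the order Pdzk1ip1 (700), Krt18 (156), Selp (112), Ly6a (19.5), Slamf1 (12.9), Erg (8.45), Plscr2 (6.05) and Hoxb5 (1.43). The single young libraries of Slamf1 (8.83 to 16.0 per kilobase) overlapped those of Erg (4.87 to 11.7). Those of Erg overlapped those of Plscr2 (4.83 to 7.18). Such ranges ignore that the genes share libraries, so the overlap does not show equal levels, and no difference was tested. Ly6a and Hoxb5 overlapped no neighbour whose libraries were known. In old cells Plscr2 had moved past Erg, Slamf1 and Ly6a, to 184 per kilobase beside 82.0 for Ly6a. Hoxb5 (29.4) and Erg (28.5) closed the order at nearly 1 level, and the old libraries' spread is unknown.

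**Figure D3:**
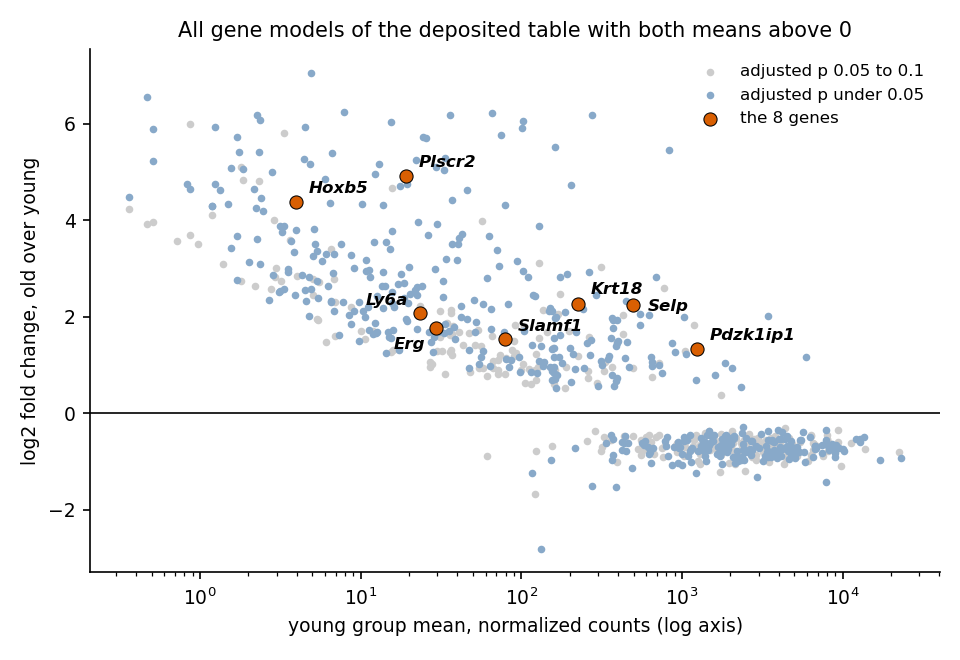
Log2 fold change (vertical axis) against the young mean in normalized counts (log axis) for the listed gene models with both means above 0, with the 8 genes marked. Pdzk1ip1, Selp and Krt18 lie among the more abundant of the gene models that are higher in old. Hoxb5 and Plscr2 lie among those with low young means, where many log2 fold changes exceed 4.

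Lists of related genes, chosen with earlier results of these data known, are read against the 4.13% of all gene models called. Shares of a list are over all its genes, some of which may not be among the 11778 gene models, so the bases are not quite alike. In the list of 51 stem cell factors and markers 6 were called, all higher in old, and 5 of those are among the 8 genes. The sixth was Txnip, a thioredoxin-binding regulator of glucose uptake and redox state, at 547 and 2292 normalized counts (log2 fold change 2.07, SE 0.65, adjusted p = 0.0400, per the authors' deposited table). Mllt3, a chromatin reader that maintains stem cells (56.1 and 145, adjusted p = 0.0955), and Gfi1b, a repressor needed for megakaryocytes and red cells (6355 and 3480, adjusted p = 0.0628), were listed in the authors' deposited table without passing. The called share of that list was 11.8%, read against 4.13% of all gene models, and it rests mostly on the 8 genes themselves. Of the 45 others in the list only 1 was called.

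Among 37 platelet-biased or aged stem cell genes 7 were called, all higher in old, a share of 18.9% beside 4.13% of all gene models. Of these 7 calls 4 are among the 8 genes, so the share rests mostly on genes chosen with the results known. Of the 32 others in the list 3 were called. Called beside them were Aldh1a1, a retinaldehyde dehydrogenase (129 and 1909), Enpp5, a membrane protein of the ectonucleotide pyrophosphatase family (63.0 and 804, log2 fold change 3.68, SE 0.80, adjusted p = 0.000621), and Nupr1, a stress-induced nuclear protein (192 and 1418, log2 fold change 2.89, SE 0.72, adjusted p = 0.00562), all per the authors' deposited table. Over the 7, the median log2 fold change was 2.89, against 2.37 over all higher calls. Clu, the secreted chaperone clusterin, did not pass (773 and 4698, log2 fold change 2.60, SE 0.96, adjusted p = 0.0993, per the authors' deposited table).

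Selp was the 1 call among 50 megakaryocyte and platelet genes, a share of 2.0% that is near the 4.13% of all gene models. Mmrn1, the platelet protein multimerin, had means of 137 and 603 and did not pass (adjusted p = 0.0772, per the authors' deposited table). Erg was the 1 call among 26 megakaryocyte transcription factors (3.85%, also near that share), and Cbfb, the partner of RUNX factors, was listed lower (687 and 490, log2 fold change -0.49, SE 0.17, adjusted p = 0.0716, per the authors' deposited table). Genes outside the table, among them Vwf, Pf4 and Gata1, have no value here and cannot be called unchanged.

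Families and partners of the 8 genes held 5 calls among 35, all higher in old, a share of 14.3% beside 4.13% of all gene models. Selplg, the leukocyte ligand of P-selectin, rose from 653 to 1284 normalized counts (log2 fold change 0.98, SE 0.27, adjusted p = 0.0161, per the authors' deposited table). The scramblases Plscr4 (33.4 and 121, adjusted p = 0.0161) and Plscr1 (386 and 1013, adjusted p = 0.0457), the homeobox gene Hoxb2 (3.52 and 26.1, adjusted p = 0.0470) and the Ly6 family gene Ly6c1 (1.34 and 32.6, adjusted p = 0.0251) were the other called ones in the authors' deposited table. Genes within the Ly6 and Plscr families may share reads where their sequences are alike, which was not tested. These values, and those of Ly6a and Plscr2, are uncertain to that extent.

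By level in both groups, each of the 8 genes had a close neighbour among the other listed gene models, measured as the distance between log2 means over the 2 groups after adding 1. In the authors' deposited table the gene nearest to Slamf1 was Mdfi (81.2 and 231, distance 0.036), to Erg Cd72 (30.3 and 97.9, 0.049), to Krt18 Pik3ip1 (242 and 1080, 0.11), to Ly6a Rasgef1b (23.4 and 108, 0.13), to Selp Txnip (0.15), to Plscr2 Npdc1 (19.5 and 521, 0.17), to Hoxb5 AK083149 (5.17 and 73.3, 0.35) and to Pdzk1ip1 Tfr2 (1051 and 2587, 0.38). The 2 group means set this likeness, so it describes levels and nothing more.

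Some markers of other cells were also called as higher in old. Of 30 granulocyte and monocyte markers 17 were called, all higher, a share of 56.7% beside 4.13% of all gene models. The sum of the 19 listed ones went, per the authors' deposited table, from 5660 to 104767 normalized counts. All 19 were listed as higher under the limit near 0.1, so the rise of their sum follows from that filter. The sum leaves out the unlisted markers. Its largest old means were those of Ngp (830 and 36140), Ltf (276 and 19916) and Lyz2 (3428 and 13811). By adjusted p the first called ones were Cd68 (40.7 and 509), Csf3r (8.72 and 85.8), Csf1r (5.32 and 56.8) and Retnlg (4.91 and 648). Elane and Mpo, defining genes of early granulocyte progenitors, have no value in that table and cannot be called unchanged. Prtn3, of the same list, was called as higher (395 and 1498, adjusted p = 0.00304, per the authors' deposited table). Also called as higher were 2 of 20 erythroid (10%), 4 of 18 mast cell, basophil and eosinophil (22.2%) and 2 of 14 lineage antigen genes (14.3%), the last being Klrb1c and Cd4. These shares rest on 2 to 4 genes each, and 2.56% of all gene models were called as higher. The eosinophil gene Prg3 was listed at 0 in young. The part of these cells in the rises of the 8 genes was not tested.

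The authors' scaling bears on the size of each rise. The 230 listed gene models with means of at least 1000 in both groups had a median log2 fold change of -0.66. With that taken as the new zero, all 434 calls among listed gene models would be higher in old, where 62.0% of deposited calls were. Unlisted gene models could not be called again, so these 2 shares are not alike. All 8 genes would pass, each moved up by the same shift. Slamf1 would stand at 2.20 on the log2 scale (adjusted p = 0.00204, from the authors' DESeq SE). That median comes from listed gene models alone, so it does not show which scaling is right.

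**Figure D4:**
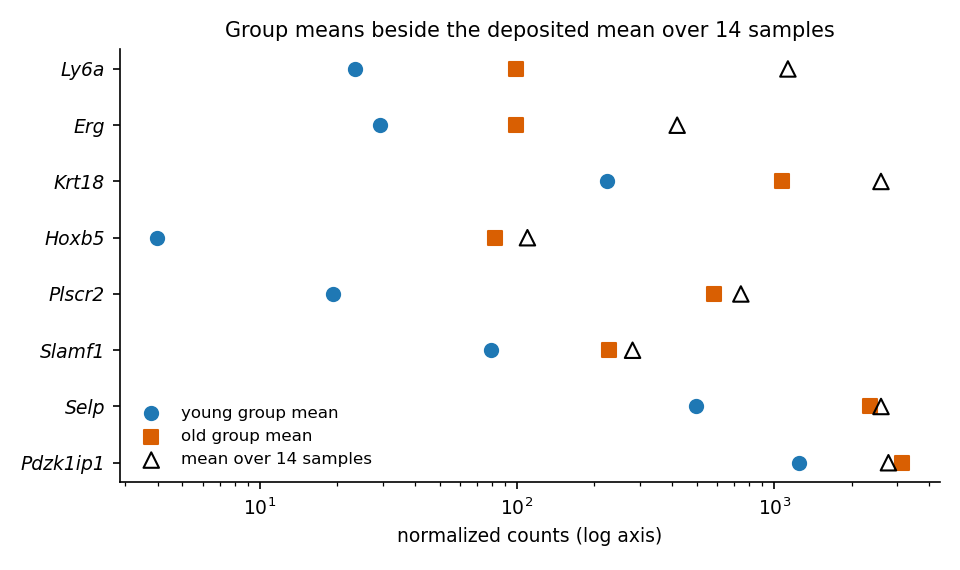
Young and old group means and the deposited mean over 14 samples, in normalized counts (log axis), for each gene. The 14-sample mean lies above both groups in 7 genes, farthest in Ly6a (1130 against 98.8 in old), and between them in Pdzk1ip1.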

How the data were processed

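Per the labels' protocols, RNA came from a Trizol extraction and libraries from the NEBNext Ultra kit. The submitters' processing notes name Bowtie2, STAR, DESeq and build mm10, without versions or roles. Counting, strand setting, annotation and filters were not given in the sources used here. Per the file headers, the deposited table gives group means of normalized counts, a scaled signal without values per library, a mean over 14 samples (more than the 7 of this series), the log2 fold change (old over young) and its SE, the Wald score, and the p-value and adjusted p-value. The old column's name, mkpxo, matches no single title and was read as the old group. The deposited adjusted p-values correspond to a Benjamini-Hochberg adjustment over 11778 gene models, and the table ends near 0.1. Values per library were not analysed here, so no model was fitted; calls are the authors' DESeq adjusted p under 0.05.

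From these values, ratios, 95% intervals (SE and the normal distribution), list counts and nearest patterns were computed with Python 3.11.15, pandas 2.3.3, numpy 2.4.6 and scipy 1.17.1, and drawn with matplotlib 3.10.9. Whole reads behind young means were sought after the values were seen; of all 287 gene models with a young mean above 0 and up to 100, the range that holds Slamf1, 282 had a single solution. The search and the recovery of the adjustment's size were tested on simulated data. Total depth per library is unknown, and counting intervals cover counting error only. The 8 genes and the 10 lists were chosen with earlier results of these data known. Named are the 8 genes, up to 4 listed genes per list by adjusted p, and each gene's nearest listed gene model. Cbfb, Mllt3, Gfi1b, Clu and the called relatives were named to account for whole lists after their values were seen. Prtn3, Ngp, Ltf and Lyz2 were also named after their values were seen. Coordinates are from GENCODE vM21 (GRCm38). Alternatives were other p limits, Bonferroni adjustment, ratios of means with pseudocounts 0, 1 and 10, recentring, and filters on mean and SE.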

Additional observations from a re-analysis of the deposited data

Results flagged for a closer look

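The mean over 14 samples, a column that enters no comparison of the 2 ages, lies above both group means in 7 of the 8 genes. Since both groups can only be part of those 14 samples, some library outside the 2 groups held a higher level. It was 1130 normalized counts for Ly6a, 419 for Erg, 2601 for Krt18, 110 for Hoxb5, 742 for Plscr2, 281 for Slamf1 and 2602 for Selp. In Ly6a, the gene of the antigen the gate leaves out, that mean was 11.4 times the old mean, a ratio that ranked 5 among the 432 listed gene models higher in old. In Erg it was 4.24 times and ranked 41. For Pdzk1ip1 it was 2781, between the groups. The 14-sample mean lay above both group means in 308 of those 432 gene models (71.3%), so it is not particular to these genes. If the old mean rests on all 4 old libraries, the other 7 samples averaged 2194 for Ly6a and 770 for Erg. What those samples were was not given in the sources used here, and their part in the authors' SE was not tested.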

How the results depend on the processing

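Of the 8 genes, 7 were called as deposited and 8 at an adjusted p under 0.1. That all 8 pass under 0.1 was fixed in advance, since they were taken from a table that ends there. At an adjusted p under 0.01, 3 were called (Plscr2, Hoxb5 and Erg). With a Bonferroni adjustment over 11778 gene models 2 were called, Plscr2 and Hoxb5. For Hoxb5 this made the authors' DESeq p-value an adjusted p = 0.0458, just inside. With both group means at least 50, 3 were left as called (Pdzk1ip1, Krt18 and Selp), because the other 4 have young means under 50. Without genes with an SE over 0.7, which removes Plscr2 and Hoxb5, 5 were called. Recentring, which moves every gene up by the same shift, raised the count to 8. A 14-sample mean of at least 50 removed none. The ratio of the 2 means came within 1 SE of each deposited fold change at pseudocounts of 0 and 1. At a pseudocount of 10, Hoxb5 stood at 2.72 on the log2 scale in place of 4.38, and the other 7 genes stayed within their SE.

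No paired analysis was possible because values per group, not per library, were at hand. For that reason leaving out single libraries, TMM, other size factors and count models were not run. The recentred adjusted p-values rank listed gene models only and are upper bounds. Counting error alone spans 4.12 to 17.1 reads for the 9 young reads of Hoxb5 (exact Poisson 95% interval), the fewest among the 5 genes whose reads were recovered.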

Other observations

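Listed gene models within 200 kb of each of the 8 genes were looked up after the values were seen. Hoxb5, Ly6a and Plscr2 had listed relatives there. The table lists 6.53% of the 11778 gene models, and 432 of its 769 are higher in old, so a listed neighbour or its direction says little by itself. Beside Hoxb5, 1 of 12 coding genes was listed: Hoxb2, 44.4 kb away, with 2, 6 and 0 reads in the young libraries and an old mean of 26.1 normalized counts, per the authors' deposited table. Beside Ly6a, 2 of 11 were listed: Ly6c1, 46.0 kb away, with 1 read in each young library and an old mean of 32.6, and Ly6c2, 110 kb away, with an old mean of 897 that did not pass (adjusted p = 0.0879) in the authors' deposited table. Young levels of Ly6c2 were 18.5, 93.7 and 58.3, far wider apart than those of Ly6a. Beside Plscr2, 2 of 4 were listed: Plscr1, 3.32 kb away, and Plscr4, 160 kb away, at log2 fold changes of 1.39 (SE 0.44) and 1.86 (SE 0.52) against 4.93 for Plscr2 in the authors' deposited table. Beside Slamf1, Erg, Krt18 and Pdzk1ip1 none was listed, and beside Selp only Gm16548, a non-coding gene on its other strand. Sharing of reads between relatives was not tested.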
